A study of Homo sapiens with 6 samples.

Results

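DNA damage repair and checkpoint genes were followed in Ishikawa, a line of human endometrial cancer cells, 48 hours after lipofection with an siRNA against TCF19 (siTCF19, the TCF19 knockdown group) or with a negative control siRNA (siNC). Each group held 3 libraries of total RNA, and all cells were grown in DMEM with serum and were given a transfection. The set is 36 of the 58735 genes in the deposited table: every gene of a fixed list of checkpoint and repair genes was taken by its symbol, and all 36 were found once and passed the filter on low counts. The list was divided by known role into 8 checkpoint genes, 11 homologous recombination genes, 6 Fanconi genes, 3 mismatch repair genes, 5 end joining genes and 3 genes of poly(ADP-ribose) signalling and lesion bypass. The knockdown was a transient transfection of 1 cell line with an siRNA whose sequence was not used here. The labels do not say whether libraries within a group are separate cultures. The p-values therefore measure only the spread between these libraries, which may be technical.

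Cells meet broken or blocked DNA with a layered response. The kinases ATM and ATR sense double-strand breaks and exposed single strands and pass the signal to CHEK2 and CHEK1, which halt the cell cycle. Breaks are then rejoined directly by the Ku proteins, DNA-PKcs and ligase IV, or copied from the sister chromatid by homologous recombination, in which BRCA1, PALB2 and BRCA2 act in a chain. The Fanconi proteins unhook crosslinks, mismatch repair corrects replication errors, and PARP1 marks single-strand breaks. In endometrial tumours, loss of mismatch repair is a common and well-known lesion.

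Libraries held 14680022 to 16244705 counts, and 17299 genes were tested. TCF19 (ENSG00000137310, a nuclear factor with a PHD finger) was at 177, 185 and 177 CPM (a gene's count relative to all counts of its library, after TMM scaling) in siNC and at 42.7, 35.3 and 39.1 CPM in siTCF19, so the groups did not overlap. It fell by 2.20 ± 0.06 on the log2 scale (SE, n = 3 per group; edgeR adjusted p = 6.15e-29). Epithelial markers were present (5 of 5 tested, summed level, as CPM without TMM scaling here and for the next lists, 1970 to 2040 in siNC and 1910 to 1990 in siTCF19). Of 5 stromal markers COL1A1 and COL1A2 were tested and the other 3 stayed under 10 counts in every library, DCN at 0 throughout; summed, the 5 reached 173 to 176 in siNC libraries and 127 to 137 in siTCF19 libraries. None of 5 immune markers was tested, and MS4A1 was at 0. Of 5 endothelial markers 2 were tested, and the 5 summed to 6.40 to 6.89 in siNC libraries and 14.3 to 17.7 in siTCF19 libraries. Most of that was VWF, at 74 to 82 counts in siNC and 210 to 264 in siTCF19. CDH5 went the other way, at 12 to 19 counts in siNC and 3 to 5 in siTCF19. PECAM1 and KDR stayed at 15 counts or fewer. Sums of the other lists also joined opposed members: COL1A2 was lower and COL1A1 higher in siTCF19, and KRT8 and KRT18 were lower while KRT19 and CDH1 were higher. The part of these markers in the repair gene values was not tested.

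The repair and checkpoint genes moved little and in both directions. PARP1, the Ku genes XRCC6 and XRCC5, MSH6 and FANCI were lower after TCF19 knockdown, and LIG4, BRCA2, PALB2, BARD1, POLQ, TP53BP1, CHEK1 and BRIP1 were higher. The fold changes of these genes ran from 1.13-fold for BRIP1 to 1.37-fold for PARP1. In numbers, 8 of 36 rose (22.2%) and 5 fell (13.9%) at an edgeR adjusted p under 0.05 (gene positions below are hg38), against 20.7% and 20.8% of all tested genes. The share called in either direction was 36.1% in this set and 41.5% over all tested genes. Among the 13395 tested protein-coding genes it was 48.2%, with 23.8% higher and 24.5% lower. No member reached a called change of 1.5-fold, where 11.8% of all tested genes did. The median log2 fold change was 0.07 over the 36 genes and 0.00 over all tested genes, and single values ran from -0.46 to 0.37. With scaling by library size alone 15 members rose and 5 fell, which moved the higher share of the calls from 61.5% to 75%; over all genes that share moved from 49.9% to 61.4% and the median log2 fold change to 0.06. These are bulk libraries, in which fewer cells of a type and less RNA per cell cannot be told apart.

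**Figure D1:**
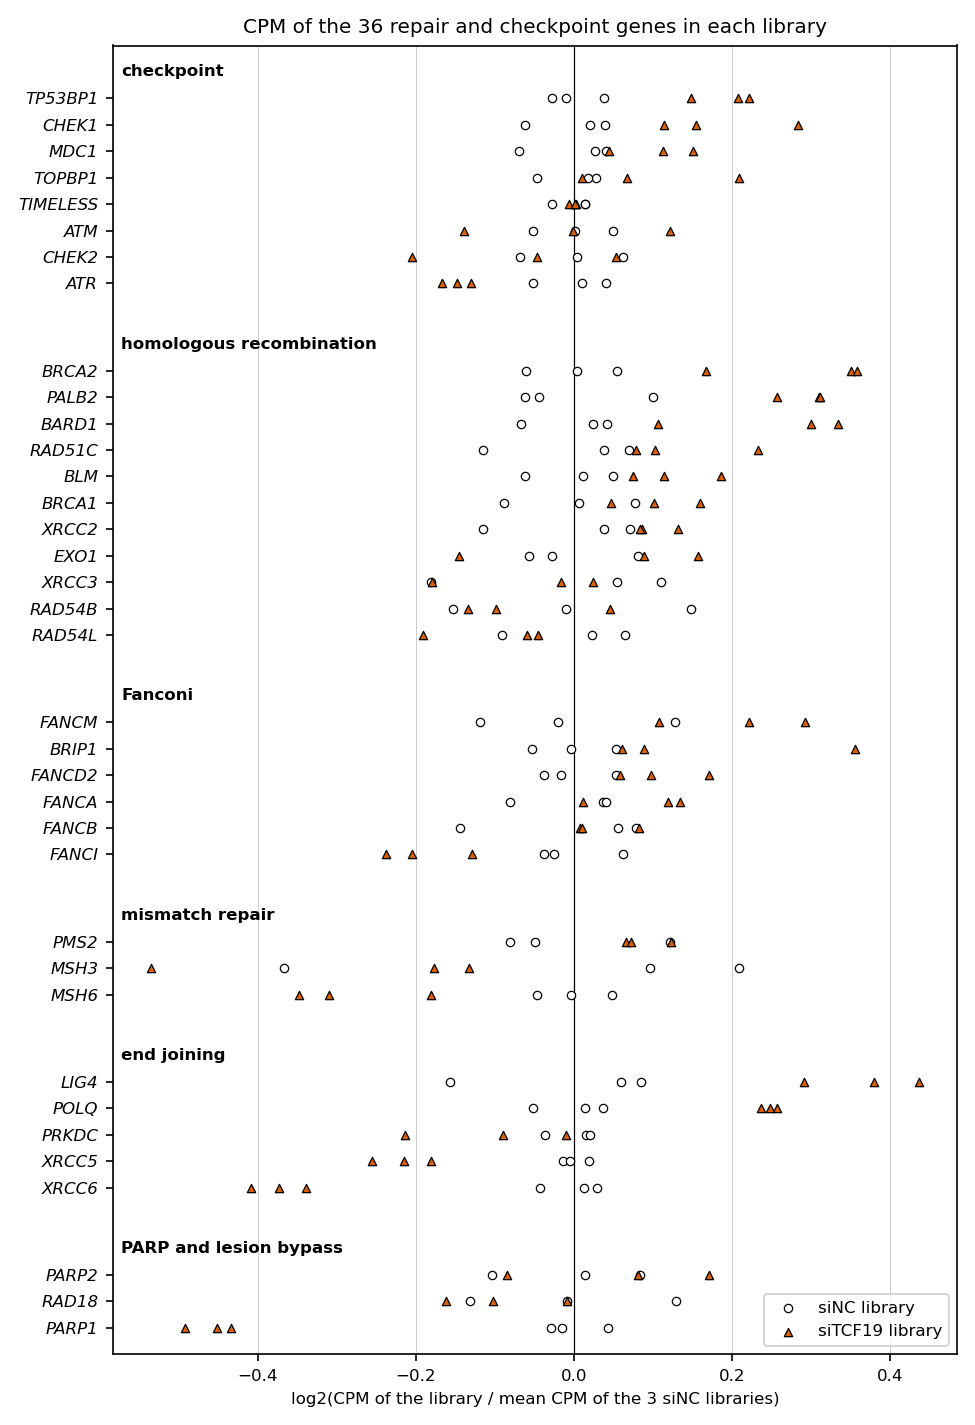
Level of each of the 36 genes in every library, as log2 of its CPM over the mean CPM of the 3 siNC libraries; circles are siNC libraries and triangles siTCF19 libraries, and genes are grouped by role. The triangles of PARP1, XRCC6 and XRCC5 lie left of every circle and those of LIG4, POLQ, BRCA2 and PALB2 right of every circle. In 17 of the 36 genes the groups overlap and in 19 they do not. Of the 138 other repair genes tested, 72 did not overlap. The share over all tested genes was not counted, so the 19 cannot be read as a trait of this set.

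PARP1 and both Ku genes were among the most abundant members and fell. PARP1 (chr1:226360691-226408079, minus strand), the polymerase that builds poly(ADP-ribose) at broken DNA, was at 420, 437 and 416 CPM in siNC and at 302, 314 and 310 CPM in siTCF19. Every siTCF19 library lay below every siNC library, a 1.37-fold difference with a log2 fold change of -0.46 ± 0.04 (SE, edgeR adjusted p = 1.57e-11). PARP2, its smaller relative with an overlapping role, was at 52.8, 60.1 and 57.3 CPM in siNC and at 53.5, 60.0 and 63.9 CPM in siTCF19, so its groups overlapped. RAD18, the ubiquitin ligase that marks PCNA at stalled forks, was at 36.1 to 43.3 CPM in siNC and 35.4 to 39.3 CPM in siTCF19. It was not called (edgeR adjusted p = 0.359). Of the 3 genes of poly(ADP-ribose) signalling and lesion bypass 1 fell and 0 rose, against 20.8% and 20.7% of all tested genes. Their median log2 fold change was -0.09.

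End joining genes moved in opposite directions. XRCC6 (chr22:41621119-41664048, plus strand), which encodes Ku70, was at 720, 685 and 712 CPM in siNC and at 545, 532 and 558 CPM in siTCF19. XRCC5 (chr2:216107464-216206303, plus strand), which encodes its partner Ku80, was at 505, 494 and 497 CPM against 440, 429 and 417 CPM. Neither gene's groups overlapped, and the log2 fold changes were -0.37 ± 0.04 for XRCC6 (SE, adjusted p = 1.03e-09) and -0.22 ± 0.04 for XRCC5 (adjusted p = 5.61e-05). PRKDC, the gene of the DNA-PKcs kinase that Ku recruits, was at 605, 627 and 629 CPM in siNC and at 583, 616 and 535 CPM in siTCF19, with overlapping groups and an adjusted p of 0.0688. Its call depended on the setting: limma-voom called it lower (adjusted p = 0.0407), and so did edgeR once siTCF19 replicate 2 was left out (0.0103).

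LIG4 (chr13:108207439-108218368, minus strand), which encodes the ligase that seals the joined ends, went the other way. Its level was 23.8, 24.2 and 20.5 CPM in siNC and 29.7, 30.9 and 27.9 CPM in siTCF19, so all siTCF19 libraries were higher. The log2 fold change of LIG4 was 0.37 ± 0.09 (SE, adjusted p = 0.000533), the largest rise of the 36 genes. POLQ (chr3:121431427-121546641, minus strand), the polymerase of microhomology-mediated joining, was at 58.8, 62.4 and 61.5 CPM against 72.8, 71.7 and 72.3 CPM, and rose by 0.25 ± 0.06 (adjusted p = 0.000724). Of the 5 end joining members 2 rose (40%), 2 fell (40%) and 1 was not called, against 20.7% higher and 20.8% lower of all tested genes. Their median log2 fold change was -0.10. With so few genes these counts are a description.

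In homologous recombination BRCA2, PALB2 and BARD1 were called higher, and the other 8 members were not called. BRCA2 (chr13:32315474-32400266, plus strand), which acts on resected single-stranded DNA, was at 70.5, 68.1 and 65.1 CPM in siNC and at 86.6, 87.0 and 76.3 CPM in siTCF19. PALB2 (chr16:23603160-23641310, minus strand), which ties BRCA2 to BRCA1, was at 31.4, 28.1 and 28.4 CPM against 36.3, 35.0 and 36.4 CPM. Both genes were higher in each siTCF19 library than in any siNC library. Their log2 fold changes were 0.30 ± 0.06 for BRCA2 (SE, adjusted p = 0.000105) and 0.29 ± 0.08 for PALB2 (adjusted p = 0.00185). BARD1 (chr2:214725646-214809711, minus strand), the ring-finger partner of BRCA1, was at 42.1, 44.9 and 45.4 CPM in siNC and at 47.5, 55.6 and 54.4 CPM in siTCF19, and rose by 0.25 ± 0.07 (adjusted p = 0.00335). BRCA1 itself was at 62.4, 55.6 and 59.4 CPM against 66.1, 63.5 and 61.1 CPM; the groups overlapped and it was not called (log2 fold change 0.10, 95% interval -0.02 to 0.23).

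The other 7 recombination genes were not called. Of the recombination mediator genes, RAD51C was at 0.14 on the log2 scale of change (adjusted p = 0.0921) and XRCC2 at 0.10, and in both every siTCF19 library lay above every siNC library. The same held for BLM, a helicase that dissolves joint molecules, at 27.6 to 29.8 CPM in siNC and 30.3 to 32.7 CPM in siTCF19 (adjusted p = 0.212). The end-resecting nuclease gene EXO1 (0.04), the mediator gene XRCC3 (-0.06) and the translocase genes RAD54L (-0.10) and RAD54B (-0.06) had overlapping groups. Over all 11 recombination genes 3 rose (27.3%) and 0 fell, against 20.7% and 20.8% of all tested genes. With so few genes these counts are a description. The median log2 fold change was 0.10, or 0.06 without siNC replicate 2. With library size alone as the scale 5 rose, RAD51C and BRCA1 being added; RAD51C was also called without siTCF19 replicate 2 (adjusted p = 0.0449). RAD54B, with 94 to 124 counts a library, and XRCC3 were the least certain: 59.1% of the exon bases of RAD54B also belong to FSBP on the same strand, and 76.7% of those of XRCC3 lie opposite exons of KLC1.

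**Figure D2:**
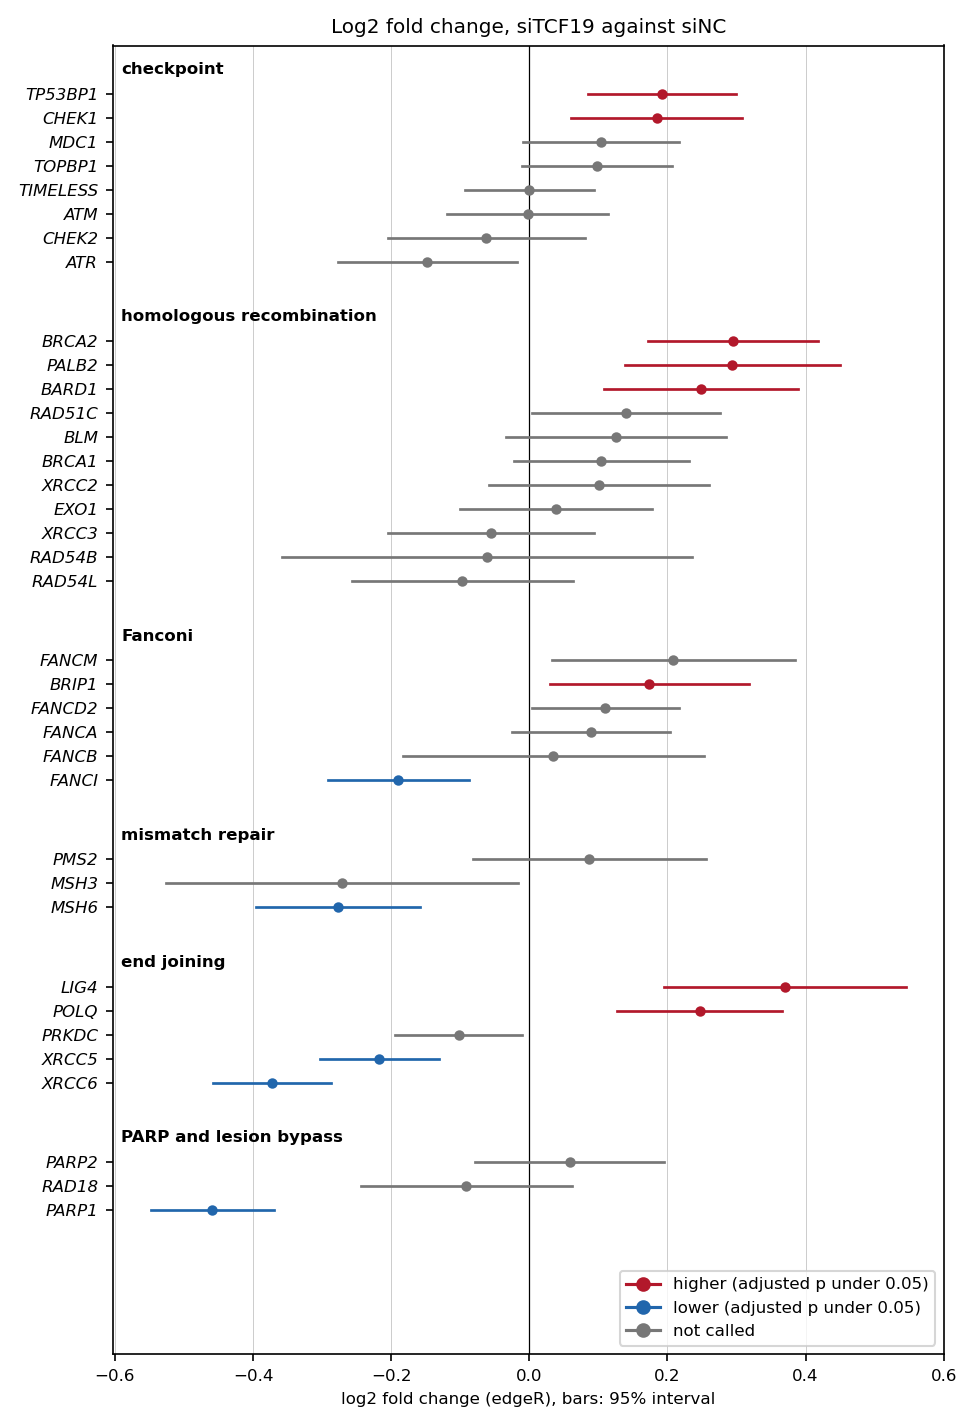
Log2 fold change of siTCF19 against siNC for the 36 genes with 95% intervals from edgeR; red genes were called higher, blue genes lower and grey genes were not called. All 5 lower genes have intervals wholly below 0, and no interval of the 36 genes reaches a 2-fold change in either direction.

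Checkpoint genes were nearly level. TP53BP1 (chr15:43403061-43510728, minus strand), the chromatin reader that protects broken ends from resection, was at 94.3, 97.5 and 93.2 CPM in siNC and at 110, 111 and 105 CPM in siTCF19, and rose by 0.19 ± 0.05 on the log2 scale (SE, adjusted p = 0.0031). CHEK1 (chr11:125625136-125676255, plus strand), the kinase downstream of ATR, was at 60.8, 65.2 and 64.4 CPM against 68.7, 77.2 and 70.7 CPM and rose by 0.18 ± 0.06 (adjusted p = 0.0133). The siTCF19 libraries of both genes lay above all siNC libraries. Leaving out siNC replicate 1 or siTCF19 replicate 2 ended the call of CHEK1 (adjusted p = 0.0755 and 0.0733). ATR was at 55.5, 54.3 and 52.0 CPM in siNC and at 49.3, 48.0 and 48.7 CPM in siTCF19; its groups did not overlap, but it missed the threshold (log2 fold change -0.15, adjusted p = 0.0618).

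ATM, the double-strand break kinase, was at 101 to 109 CPM in siNC and at 95.4 to 114 CPM in siTCF19, with a log2 fold change of -0.00 and a 95% interval of -0.12 to 0.11. TIMELESS, which holds the replication fork together when it stalls, was at 203 to 209 CPM and at 206 to 208 CPM, and its 95% interval of -0.09 to 0.09 was among the narrowest of the set. The scaffold genes MDC1 (0.10) and TOPBP1 (0.10) and the kinase gene CHEK2 (-0.06) were not called. The groups of TOPBP1 and of CHEK2 overlapped. Those of MDC1 just did not, at 83.4 to 90.0 CPM in siNC and 90.3 to 97.1 CPM in siTCF19. MDC1 and TOPBP1 were called higher with library size alone as the scale (edgeR adjusted p = 0.0144 and 0.0147). TOPBP1 was also called higher without siTCF19 replicate 3 (0.0311). Of the 8 checkpoint genes 2 rose (25%) and 0 fell, against 20.7% and 20.8% of all tested genes, with a median log2 fold change of 0.05. The count higher was 1 without siNC replicate 1 or siTCF19 replicate 2 and 3 without siTCF19 replicate 3, and the median was 0.03 without siTCF19 replicate 2 and 0.10 without siTCF19 replicate 3.

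Of the central Fanconi pair FANCI fell and FANCD2 was not called. FANCI (chr15:89243949-89317261, plus strand), whose protein pairs with FANCD2 and is ubiquitinated with it at crosslinks, was at 167, 156 and 158 CPM in siNC and at 136, 147 and 139 CPM in siTCF19. All siTCF19 libraries were lower, with a log2 fold change of -0.19 ± 0.05 (SE, adjusted p = 0.00214). FANCD2 was at 113, 108 and 107 CPM against 117, 123 and 114 CPM, with the siTCF19 libraries above, but was not called (0.11, adjusted p = 0.0936). Leaving out siTCF19 replicate 3 made FANCD2 a called rise (adjusted p = 0.0384), as did scaling by library size alone (0.00744). BRIP1 (chr17:61681266-61863521, minus strand), a helicase that binds BRCA1, was at 47.6, 46.0 and 49.5 CPM in siNC and at 50.68, 60.98 and 49.71 CPM in siTCF19. The lowest siTCF19 library lay just above the highest siNC library, and replicate 2 of siTCF19 stood well above the rest. BRIP1 rose by 0.17 ± 0.07 (adjusted p = 0.0471), but without siTCF19 replicate 2 its log2 fold change was 0.08 and it was not called (adjusted p = 0.38), as in 9 of 16 alternatives in all. The remodelling helicase gene FANCM narrowly missed the threshold (0.21, adjusted p = 0.0507) and was called higher in 7 of the 16. The core complex genes FANCA (0.09) and FANCB (0.03) were not called. Of the 6 Fanconi genes 1 rose (16.7%) and 1 fell (16.7%), against 20.7% and 20.8% of all tested genes. Their median log2 fold change was 0.10. The count of higher Fanconi genes was unstable: it was 0 without siNC replicate 1, siNC replicate 2 or siTCF19 replicate 2, 2 without siNC replicate 3, 3 without siTCF19 replicate 3 and 4 with library size alone as the scale.

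Among the 3 mismatch repair genes only MSH6 passed the test, and their median log2 fold change was -0.27. Thus 1 fell (33.3%) and 0 rose, against 20.8% and 20.7% of all tested genes. MSH6 (chr2:47695530-47810101, plus strand), which recognises single mismatches, was at 84.9, 82.5 and 88.1 CPM in siNC and at 75.2, 68.7 and 66.9 CPM in siTCF19. The groups did not overlap, and MSH6 fell by 0.28 on the log2 scale (SE 0.06, adjusted p = 0.000164). MSH3, which recognises larger loops, was at 16.4, 17.7 and 11.9 CPM against 10.57, 13.96 and 13.54 CPM. Its log2 fold change of -0.27 was close to that of MSH6, but siNC replicate 3 was as low as the siTCF19 libraries and it was not called (adjusted p = 0.0824); without that library it was -0.43 (adjusted p = 0.00446). PMS2, a mismatch repair endonuclease, differed by 0.09 (log2) and was not called (adjusted p = 0.438). PMS2 has 11 annotated pseudogenes that together held 595 to 687 counts a library, more than the 369 to 445 counts of PMS2 itself, so its value is uncertain.

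Levels were compared per gene length as the deposited FPKM (fragments per kilobase of gene length, scaled to library depth). The order ran from XRCC6 at 189 FPKM (mean over 6 libraries), XRCC5 at 84.1, PARP1 at 50.6, PRKDC at 38.5 and TIMELESS at 35.3 down to FANCM at 3.05, MSH3 at 2.95 and RAD54B at 1.31. XRCC6 was at 213 ± 5.34 FPKM in siNC and 164 ± 4.37 FPKM in siTCF19 (SD, n = 3 per group), and XRCC5 at 90.4 ± 1.14 and 77.8 ± 2.19 FPKM. Most members lay close together: 27 of the 36 were between 4 and 20 FPKM, and neighbours there were close. BRCA1 was at 6.38 ± 0.366 and 6.85 ± 0.283 FPKM in siNC and siTCF19, and XRCC2 at 6.11 ± 0.402 and 6.55 ± 0.0999 (SD). Within each group the libraries of BRCA1 overlapped those of XRCC2. The 4 members with the highest FPKM included 3 of the 5 called lower. The 8 called higher were split almost evenly, 5 among the 18 members with the lowest FPKM (1.31 to 7.02) and 3 among the 18 with the highest. Across the 36 genes the rank correlation of the log2 fold change with mean FPKM was -0.26, and across all tested genes it was -0.10. All points share the same 6 libraries and genes are not independent replicates, so both are descriptions.

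**Figure D3:**
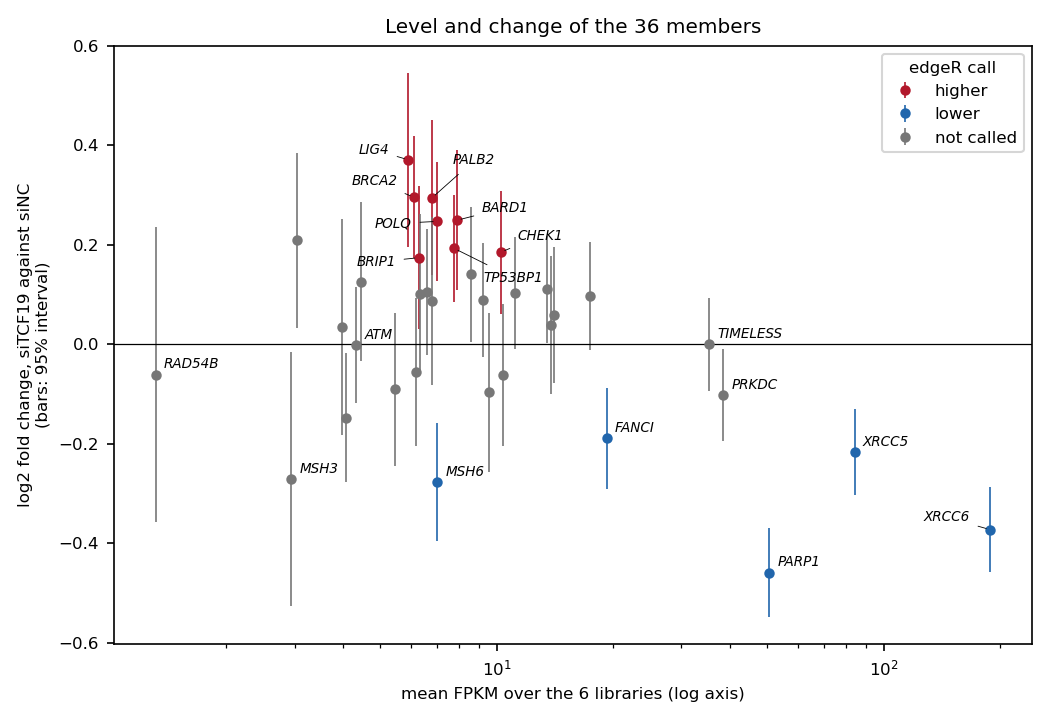
Mean FPKM over the 6 libraries (log axis) against the log2 fold change of siTCF19 over siNC for the 36 genes, with 95% intervals; colours give the edgeR call. XRCC6, XRCC5 and PARP1 are at the high end and below 0, while the 8 higher genes lie between about 5.91 FPKM (LIG4) and 10.2 FPKM (CHEK1).

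Many of these proteins act in pairs, and the ratio of the counts of 2 partner genes within a library does not depend on how libraries are scaled. Ratios were taken for 12 pairs, which were chosen after the values of the genes had been seen. The FANCI to FANCD2 count ratio was 1.48, 1.45 and 1.48 in siNC and 1.16, 1.19 and 1.22 in siTCF19, a change of -0.30 on the log2 scale. These are counts not divided by gene length, so only the change of a ratio between groups can be read, not its level.

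The ratio of LIG4 to its obligate partner XRCC4 was 2.88, 3.39 and 2.68 in siNC and 3.64, 4.36 and 4.25 in siTCF19. The LIG4 to XRCC6 ratio changed by 0.75 on the log2 scale, the largest change of the 12 pairs. That change restates the rise of LIG4 and the fall of XRCC6 given above and is no separate result. PARP1 to PARP2 was 7.94, 7.27 and 7.26 against 5.63, 5.23 and 4.85, a change of -0.52. Within Ku, XRCC6 to XRCC5 was 1.43, 1.39 and 1.43 against 1.24, 1.24 and 1.34. The BRCA2 to PALB2 ratio hardly moved, at 2.25 to 2.43 in siNC and 2.10 to 2.49 in siTCF19 (change -0.00 on the log2 scale). The groups did not overlap in 8 of the 12 pairs, and each of these had the smallest p that 3 against 3 libraries allow (0.1, exact permutation test, two-sided; 0.15 after Benjamini-Hochberg adjustment over the 12), so the design could not reach 0.05. As the pairs were chosen with the gene values known, this count and its p-values are descriptions only. The share among other gene pairs was not counted.

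**Figure D4:**
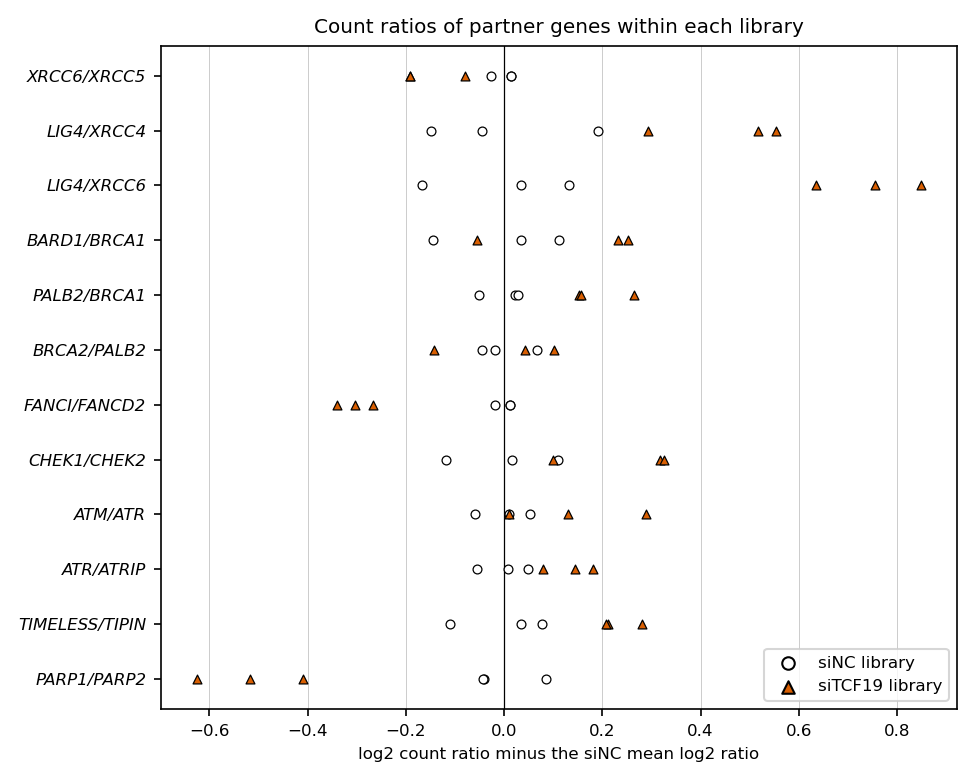
Log2 of the count ratio of 12 pairs of partner genes in each library, minus the mean over the 3 siNC libraries; circles are siNC libraries and triangles siTCF19 libraries. The triangles lie wholly to 1 side of the circles in 8 pairs, among them FANCI/FANCD2, PARP1/PARP2 and LIG4/XRCC6.

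Promoter sequences are shown for the 2 genes that fell most and for BRCA2 and PALB2, which rose, to set side by side start regions of genes that moved in opposite directions. Each run is the 150 bases just before the annotated start, 5′ to 3′ on the gene's strand, from RefSeq on GRCh38.p14, with CCAAT or its reverse complement ATTGG in capitals. They lie at chr1:226408094-226408243 on the minus strand (PARP1), chr22:41621145-41621294 on the plus strand (XRCC6), chr13:32315358-32315507 on the plus strand (BRCA2) and chr16:23641311-23641460 on the minus strand (PALB2).
PARP1: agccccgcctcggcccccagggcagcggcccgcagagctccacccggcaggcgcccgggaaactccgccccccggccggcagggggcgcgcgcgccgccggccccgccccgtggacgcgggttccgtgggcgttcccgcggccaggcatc
XRCC6: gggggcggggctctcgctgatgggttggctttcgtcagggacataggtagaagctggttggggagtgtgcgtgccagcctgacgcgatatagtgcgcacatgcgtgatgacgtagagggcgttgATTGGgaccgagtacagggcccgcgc
BRCA2: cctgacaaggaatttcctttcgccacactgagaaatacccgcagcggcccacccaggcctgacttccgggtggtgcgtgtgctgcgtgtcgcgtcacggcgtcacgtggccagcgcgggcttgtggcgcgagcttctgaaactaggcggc
PALB2: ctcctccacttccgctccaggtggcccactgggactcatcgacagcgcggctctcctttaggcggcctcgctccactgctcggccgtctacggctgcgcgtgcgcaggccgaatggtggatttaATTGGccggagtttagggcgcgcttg

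Both XRCC6, which fell, and PALB2, which rose, have 1 ATTGG, starting 26 bases before the start site. Of the 36 genes 32 had a promoter entry. Within 250 bases before a start, CCAAT on either strand, the core of the NF-Y site, was found in 18 of 32 (56.2%), against 41.1% of 11140 tested genes with an entry. It was found in 5 of the 8 higher genes, 2 of the 3 lower genes with an entry and 11 of the 21 not called. The word TTTGAA on either strand, the core of the cell cycle homology region, was in 4 of 32 (12.5%) against 11.8% of tested genes. The E2F words TTTCGCGC or TTTGGCGC, on either strand, were in MSH3 alone, where both occur and overlap, against 1.98% of tested genes. A match is a description of letters, and its absence says only that they are not in this window.

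Short words shared by the 3′ UTRs of genes that were lower in these libraries were looked up because of earlier results of these data. Of 13162 tested genes with an annotated 3′ UTR, 13.9% carry TGGTCAA or GGTCAAA there, and 30.7% of the carriers were called lower and 21.9% higher, against 23.5% and 24.3% of the other genes. Because the words were picked from genes lower in these same libraries, the larger share of lower carriers was built in and is no separate evidence. Of the 36 genes 4 are carriers, and all 4 were called: FANCI and MSH6 lower, TP53BP1 and BRIP1 higher. Each carries 1 site, shown with the word in capitals and 10 bases on each side, from GENCODE release 29 transcripts on GRCh38.
MSH6, chr2:47809880-47809907, plus strand: tcaatgactaTGGTCAAAactgcaatta
FANCI, chr15:89316903-89316929, plus strand: ttaatgctaaGGTCAAAaggagagtga
TP53BP1, chr15:43406576-43406602, minus strand: ttctgtaaagGGTCAAAgagtaaatat
BRIP1, chr17:61685498-61685524, minus strand: gggttgtaaaGGTCAAAattataaata

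MSH6 alone carries both words, joined as TGGTCAAA, at base 3030 of a 3′ UTR of 3241 bases. The BRIP1 site lies in a transcript with a 3′ UTR of 984 bases. The longest annotated 3′ UTR of BRIP1, of 2030 bases, does not hold the words. Which transcripts these cells use was not tested. Without the 4 carriers 6 members were higher and 3 lower, PARP1, XRCC6 and XRCC5. The part of these words in the falls of MSH6 and FANCI was not tested.

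Beyond the 36, 141 other repair and checkpoint genes were listed, of which 138 were tested. Among those tested 36 rose (26.1%) and 24 fell (17.4%), with a median log2 fold change of 0.04. Over all tested genes 20.7% rose and 20.8% fell, and each list below is to be read beside these shares. Poly(ADP-ribose) signalling and lesion bypass had the largest share called higher, 8 of 13, and 0 lower (median 0.23): the RAD18 partner genes UBE2A (0.31) and UBE2B (0.36) and REV3L (0.32), the catalytic subunit of polymerase zeta, rose. Base excision repair had the largest share called lower of these lists, 6 of 17 (35.3%) with 1 higher (median -0.06; the other end joining genes had the lowest median, -0.08): the uracil glycosylase gene UNG fell by 0.57 on the log2 scale, the flap nuclease gene FEN1 by 0.46 and the abasic site nuclease gene APEX1 by 0.37.

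Of 34 tested other recombination genes 7 rose (20.6%) and 6 fell (17.6%), against 20.7% and 20.8% of all tested genes. NBN, a subunit of the break-sensing MRN complex, fell by 0.67 on the log2 scale (adjusted p = 1.2e-10), from a mean of 58.8 to 37.0 CPM. SWI5 (-0.55) and ABRAXAS1 (-0.57), a scaffold of the BRCA1-A complex, also fell. Of 16 other checkpoint genes 4 rose and 4 fell: the phosphatase genes CDC25A (-0.54) and CDC25C (-0.38), which CHEK1 restrains, fell, and CLSPN (0.24), the adaptor through which ATR activates CHEK1, rose. Of 18 other Fanconi genes 6 rose, among them DCLRE1B (0.38), DCLRE1A (0.20) and SLX4 (0.21), and 1 fell, FANCE (-0.27).

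Of 18 other end joining genes 2 rose (11.1%) and 4 fell (22.2%), against 20.7% and 20.8% of all tested genes. APTX (0.23), which cleans DNA ends, was among those that rose, and POLM (-0.37) and PAXX (-0.29) among those that fell. Of 6 other mismatch repair genes MSH5 (0.68) and MSH4 (0.51), known from meiosis, rose from low levels (means 8.22 to 13.2 and 5.57 to 7.97 CPM), and MLH3 fell (-0.21). Of 16 tested nucleotide excision repair genes 6 rose and 2 fell; the damage sensor subunits parted, DDB2 rising by 0.40 and DDB1 falling by 0.37 on the log2 scale.

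**Figure D5:**
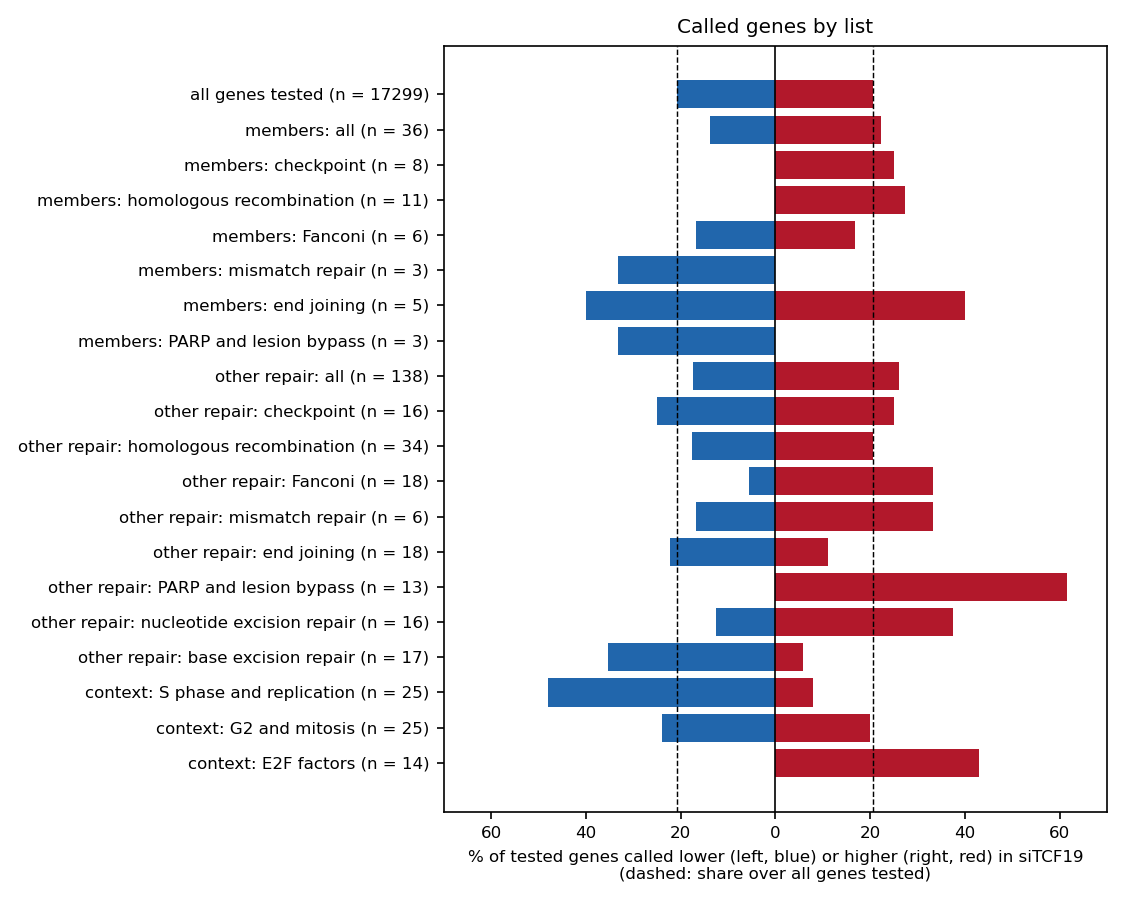
Share of tested genes called lower (left, blue) and higher (right, red) in siTCF19 for all genes, the 36 members and their 6 groups, other repair lists and 3 cell cycle lists; dashed lines mark the shares over all genes, 20.7% higher and 20.8% lower. The longest bars are the 8 of 13 other genes of poly(ADP-ribose) signalling and lesion bypass that rose and the 12 of 25 S phase genes that fell.

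Many repair genes are transcribed with the cell cycle, so lists of cycle genes are given beside them. Of 25 S phase and replication genes 12 fell (48%) and 2 rose (8%), against 20.8% and 20.7% of all tested genes. Their median log2 fold change was -0.13, with falls in MCM7 (-0.52), MCM3 (-0.37) and TYMS (-0.55). Their summed level was 3518 to 3640 CPM in siNC and 3086 to 3179 CPM in siTCF19. Of 25 G2 and mitosis genes 5 rose and 6 fell (median -0.01), with CDC20 (-0.33) falling and TOP2A (0.27) and KIF23 (0.29) rising, and their summed level overlapped between groups. Of 14 E2F, RB family and related cell cycle factor genes 6 rose and 0 fell, among them LIN54 (0.41), E2F1 (0.28) and E2F8 (0.26). The summed level of the 11 recombination members was 447 to 458 CPM in siNC and 488 to 503 CPM in siTCF19, and that of the 5 end joining members 1893 to 1920 and 1611 to 1680 CPM. The part of the cell cycle genes in the repair gene values was not tested.

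The authors' deposited table lists 12 of the 36 genes at an adjusted p under 0.05, 7 higher and 5 lower, all of them also called here. BRIP1, called here, is at an adjusted p of 0.131 in the authors' deposited table. Both sets of values rest on the same libraries.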

How the data were processed

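The authors deposited whole-number read counts and FPKM per gene, per the file headers, next to normalized signal averaged over each group and, from their own test, log2 fold changes and p-values. HISAT2 2.0.5, featureCounts 1.5.0-p3 and hg38 are named, per the submitters' processing notes; the sources used here give neither the strand setting nor the treatment of multi-mapping reads. All 58735 gene positions equalled GENCODE release 29.

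Counts were tested with edgeR 4.0.16 in R 4.3.3: filterByExpr (17299 genes, at least 99.7% of each library's counts), TMM factors, glmQLFit and glmQLFTest on group alone, and Benjamini-Hochberg adjustment over all tested genes. Calls required an adjusted p under 0.05, from edgeR where no other tool is given. SEs and 95% intervals come from the quasi-likelihood F. Alternatives were other scalings and filters, DESeq2 1.42.0, limma 3.58.1 (voom, and trend on log2(FPKM + 1)), a replicate block, a threshold of 0.01 and each library left out; the run without UTR word carriers was chosen after seeing the data.

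Named were members called with a change of at least 1.5-fold (none), up to 3 called members per group by lowest p, and up to 3 called genes of each other list; other named genes were picked once values were known. The members and lists were chosen with earlier results of these data known. Of the exon bases of called members, 28.7% in TP53BP1, 16.2% in MSH6 and 5.9% in FANCI lie opposite another gene, whose reads cannot be told apart without strand. Among members not called, the largest such shares after XRCC3 were 25.1% in RAD54L, 23.6% in FANCA and 16.4% in ATR. Results for some listed genes are not reported here.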

Additional observations from a re-analysis of the deposited data

How the results depend on the processing

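Of the 13 called genes, 11 kept their direction and their call in all 16 alternatives that were fitted; the exceptions were BRIP1 and CHEK1. Scaling by library size alone gave 15 higher members (8 with TMM) and a median log2 fold change of 0.13 over the 36 genes and -0.04 over the end joining genes. Without carriers of the UTR words 3 members were lower (5 with all) and the mismatch repair median was -0.09, by construction, since MSH6 is a carrier. Leaving out 1 library at a time gave 6 to 11 higher and 5 to 6 lower members, a median of -0.25 to -0.15 for mismatch repair of -0.14 to -0.04 for end joining, of 0.03 to 0.10 for checkpoint, of 0.06 to 0.13 for homologous recombination, of 0.08 to 0.13 for Fanconi and of -0.15 to -0.02 for poly(ADP-ribose) signalling and lesion bypass; the cause was not tested. Only genes that were not called changed sign. TIMELESS was at 0.00 with RLE scaling, 0.01 with upper-quartile scaling, 0.06 with library size alone, 0.00 with a filter of 1 CPM in 3 libraries and -0.01 to 0.01 when 1 library was left out. ATM was at 0.00 with upper-quartile scaling, 0.06 with library size alone and -0.06 to 0.07 when 1 library was left out, and XRCC3 at 0.00 with library size alone and -0.14 to 0.01 when 1 library was left out. Leaving out 1 library gave -0.12 to 0.01 for CHEK2, -0.13 to 0.02 for RAD54B, -0.02 to 0.13 for EXO1 and -0.03 to 0.08 for FANCB.

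The labels do not say whether same-numbered libraries share anything beyond the number. Their deviations from the group means correlated at 0.0086, -0.0241 and 0.021, and those of differently numbered libraries at -0.0291 to 0.0202. Such values cannot show that the libraries are unpaired. With the replicate block 7 members were higher and 5 lower, BRIP1 being lost (adjusted p = 0.0575). Depth limits the low genes: RAD54B, at 94 to 124 counts, had a 95% interval of -0.36 to 0.24 on the log2 scale.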
